A study of Mus musculus with 3 samples.

Results

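The 51 genes described here encode factors that build ribosomes in the nucleolus. They were chosen by symbol from the gene lists deposited with the count matrices, and all 51 were found among the 32285 genes listed. They comprise 4 proteins of the box C/D snoRNPs, 4 proteins of the box H/ACA snoRNPs, 2 abundant nucleolar proteins, 2 subunits of RNA polymerase I, 22 factors of the small subunit and 17 factors of the large subunit. Ribosome assembly starts when RNA polymerase I copies the ribosomal DNA into a long precursor. Small nucleolar ribonucleoproteins (snoRNPs) guide the methylation and pseudouridylation of that precursor, and the small subunit processome, made of the UTP-A, UTP-B and MPP10 complexes and the U3 snoRNP, folds and cuts its first part. The PeBoW complex and many single factors then mature the large subunit, and the Tex10 protein itself belongs to a complex that acts late on pre-large subunits. In the testis, spermatogonia divide and grow, whereas spermatids stop dividing, lose most of their cytoplasm and end as transcriptionally silent cells.

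The study asked what the loss of Tex10 does to spermatogenesis, using 10x Genomics single-cell libraries of testis cells from adult mice of strain C57BL/6N. Wildtype replicate 1 and wildtype replicate 2 were libraries of 1 mouse each. The knockout library pooled the cells of 2 mice with a conditional Tex10 knockout. Which Cre line was used, and which exons it removes, is not stated in the labels, and no group carries a further allele or treatment per the labels.

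Each molecule of RNA was counted once at its 3′ end by its unique molecular identifier (UMI), so a count does not grow with gene length. Levels are given as CPM, the UMIs of a gene per 1000000 UMIs after summing the cells of a class in a library. The deposited matrices held 93418341, 96001773 and 147783171 UMIs in 9967, 10153 and 12918 barcodes for the libraries in the order used throughout, namely wildtype replicate 1, then wildtype replicate 2, then knockout. Of the 7456, 7634 and 10993 barcodes kept after filtering, 56.8%, 42.9% and 65.1% fell into clusters of few UMIs, which were left out of the classes. The 5 germ cell classes were named from fixed markers, so each name means cells like that type, and they held 219, 305 and 235 spermatogonia, 438, 519 and 533 early spermatocytes, 823, 1055 and 782 late spermatocytes, 321, 591 and 446 round spermatids, and 1245, 1722 and 1521 elongating spermatids. Markers of spermatogonia were measured at 1.74% to 2.06% of their own level in elongating spermatids. The elongating class was made of different clusters in wildtype and knockout: a cluster led by Col16a1 held 435, 617 and 19 of its cells and one led by Gm4665 held 27, 8 and 508, while one led by Ttc24 held 405, 607 and 589. At most 0.255% of a library's kept barcodes also occurred in another library. Tex10 itself stood at 45.2, 41.0 and 35.2 CPM over all kept cells, at 142, 124 and 132 CPM in spermatogonia and at 21.3, 23.1 and 15.5 CPM in round spermatids. Since the deleted exons are not given, 3′ counts may come from outside them and do not check the label. With 1 knockout library there is no replicate error for the knockout, and no test was made. The spread between the wildtype libraries and exact Poisson 95% intervals, which cover counting error only, stand beside the values.

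The 51 genes together made up 1.00%, 1.01% and 1.04% of the RNA molecules counted in spermatogonia and a smaller share in each later class. Their summed level was 10017, 10146 and 10419 CPM in spermatogonia. It was 7262, 7324 and 7447 CPM in early spermatocytes and 4315, 4313 and 4639 CPM in late spermatocytes. It then stood at 1701, 1956 and 1940 CPM in round spermatids and at 417, 453 and 475 CPM in elongating spermatids. Over the wildtype libraries the sum was thus 72.3%, 42.8%, 18.1% and 4.31% of that in spermatogonia in the later classes, in this order. The libraries followed the same order of classes, and no range of 1 class overlapped that of the next.

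The number of molecules per cell gave another order, and late spermatocytes yielded the most UMIs over all genes, a wildtype mean of 40031 a cell beside 10811 in spermatogonia. The wildtype mean of summed member UMIs per cell was 109 ± 16.1 (SD, n = 2 libraries) for spermatogonia, 62.1 ± 11.03 and 173 ± 41.9 for early and late spermatocytes, 53.9 ± 6.38 for round and 5.51 ± 0.371 for elongating spermatids. Of the 51 genes, 29 had more UMIs per cell in late spermatocytes than in spermatogonia by the wildtype mean (30, 27 and 30 in the 3 libraries). In round spermatids only 4 did (5, 4 and 8 in the 3 libraries), and the median gene was at 0.206 times its spermatogonial count per cell. In late spermatocytes the members' lower share of RNA was thus not a lower number of counted molecules per cell for most of them. In round spermatids all but 4 had fewer counted molecules per cell by the wildtype mean. The same counts were not made over all genes, so those for late spermatocytes do not set the members apart. For round spermatids, the median of all tested genes in UMIs per 100 cells was 0.33 on the log2 scale relative to spermatogonia.

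**Figure D1:**
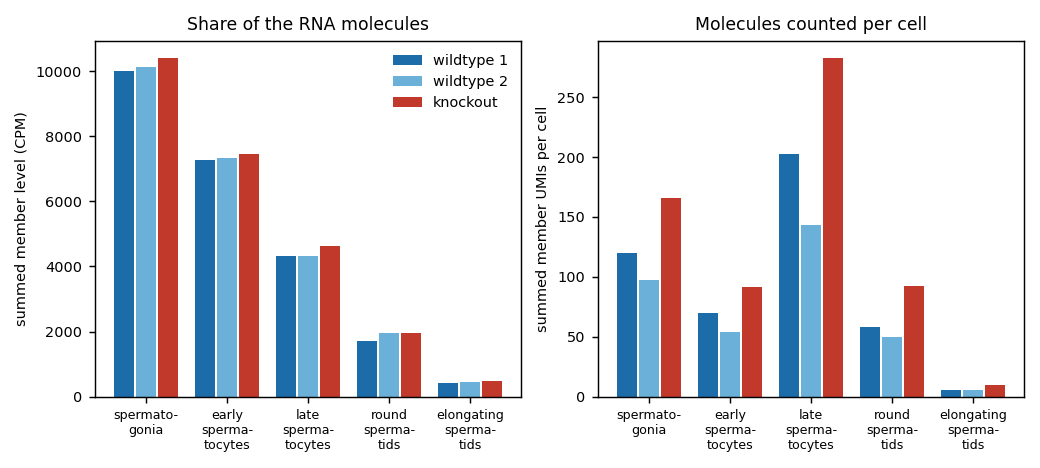
Summed level of the 51 genes in 5 germ cell classes, as CPM (left axis panel) and as UMIs per cell (right axis panel), with 1 bar for each of the 3 libraries. The CPM bars descend from about 10017 to 417 in wildtype replicate 1, whereas the UMIs per cell peak in late spermatocytes in every library.

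Class names rest on clustering of these same cells, so differences between classes are descriptions. From spermatogonia to round spermatids, 46 of the 51 genes were lower at least 2-fold in each of the 3 libraries, beside 49.2% of all 9464 genes with at least 20 CPM in 1 library of these classes. None of the 51 was higher at least 2-fold in each library, beside 31.7% of all genes. The median member ratio on the log2(CPM + 1) scale was -3.50 over the wildtype libraries, and the median of all 9464 genes was -1.08. Scaling by the trimmed mean of M values (TMM) moved the median of all genes to -0.00 and that of the members to -2.47. Relative to all genes the members stood at -2.42 in CPM, -2.46 with TMM and -2.65 in UMIs per cell.

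The fall was spread over the whole course. Between spermatogonia and early spermatocytes, 12 of 51 members were lower at least 2-fold in each library (15.4% of all tested genes). Between early and late spermatocytes, 23 of 48 with enough counts were lower (33.8%) and 3 were higher (21.4%). From late spermatocytes to round spermatids 21 of 33 were lower (38%), and from round to elongating spermatids 13 of 15 (59.3%). The highest of the 5 classes was spermatogonia in each library for 32 members (27.3% of all genes), early spermatocytes for 9 (19.2%) and late spermatocytes for 4 (18.2%), while 6 peaked in different classes in different libraries. The last step covers the 15 members that still reached 20 CPM, all others being below that level in both classes.

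**Figure D2:**
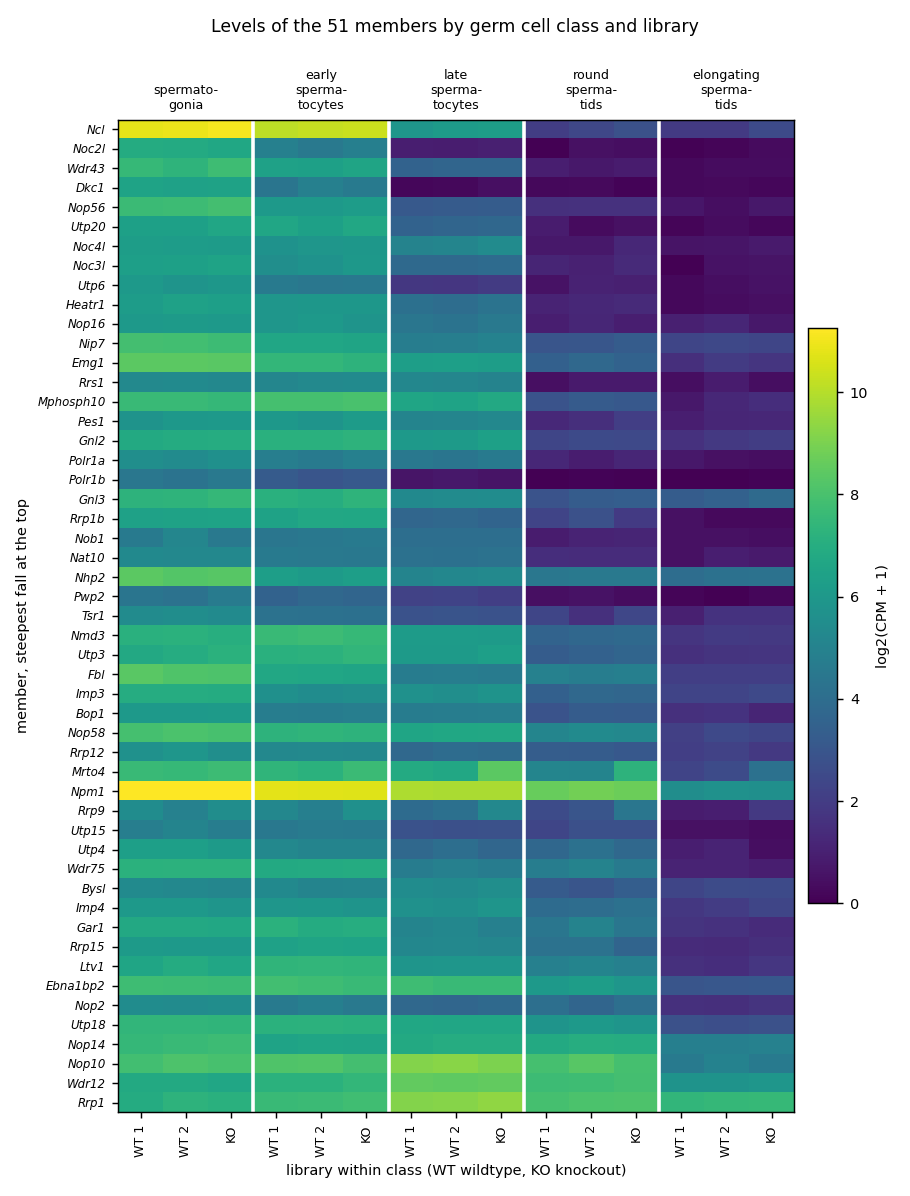
Colour map of log2(CPM + 1) for the 51 genes (rows, steepest fall from spermatogonia to round spermatids at the top) in 5 germ cell classes with 3 libraries each (columns). Most rows darken (fall) from left to right, the bottom rows of Rrp1, Wdr12 and Nop10 brighten in late spermatocytes, and Mrto4 is brighter in the knockout column of the last 3 classes.

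Among the box C/D snoRNP proteins, which carry the guides of ribose methylation, all 4 members fell at least 2-fold from spermatogonia to round spermatids. Fbl, the methyltransferase, measured 324, 284 and 275 CPM in spermatogonia and 29.3, 26.2 and 28.1 CPM in round spermatids. Its scaffold partners Nop56 and Nop58, which are paralogs, started close together and separated. Nop56 went from 203, 209 and 235 CPM in spermatogonia to 7.72, 8.52 and 8.78 CPM in late spermatocytes. Nop58 went from 245, 264 and 251 CPM to 98.0, 104 and 106 CPM over the same step. In late spermatocytes the paralogs' levels did not overlap, with Nop58 the higher in each library. Rrp9, the U3-specific member, was the lowest of the 4 in spermatogonia and early spermatocytes, and Nop56 was the lowest in late spermatocytes and round spermatids. Rrp9 is described with the knockout below.

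The box H/ACA core, which converts uridine to pseudouridine, was not lowered as a unit. Dkc1, the pseudouridine synthase, measured 90.5, 86.3 and 89.3 CPM in spermatogonia, 19.7, 28.6 and 24.0 CPM in early spermatocytes and 0.155, 0.171 and 0.377 CPM in late spermatocytes. Dkc1 is the member on the X chromosome (X:75095854-75109777, GRCm38), and the X chromosome is known to be silenced in male meiosis. Whether that bears on these counts was not tested. Nhp2 fell from 344, 299 and 319 CPM to 33.1, 36.2 and 37.7 CPM between spermatogonia and late spermatocytes, and Gar1 from 110, 110 and 106 CPM to 32.3, 35.4 and 28.8 CPM. Nop10, the smallest core protein, went the other way, from 230, 270 and 248 CPM in spermatogonia to 577, 610 and 517 CPM in late spermatocytes. In late spermatocytes Nop10 was thus the highest of the 4 core genes and Dkc1 the lowest in every library.

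Nucleolin (Ncl) and nucleophosmin (Npm1), abundant proteins that bind ribosomal RNA and pre-ribosomes, held the 2 highest member levels in spermatogonia. Ncl had the steepest fall of all members. It measured 1823, 1952 and 2159 CPM in spermatogonia, 1116, 1240 and 1290 CPM in early spermatocytes, 59.5, 70.2 and 75.6 CPM in late spermatocytes and 3.17, 4.22 and 5.99 CPM in round spermatids. The wildtype log2 ratio of round spermatids to spermatogonia was -8.66 ± 0.16 (SD, n = 2). Npm1 went from 2402, 2355 and 2426 CPM to 940, 900 and 898 CPM in late spermatocytes and 400, 465 and 421 CPM in round spermatids. The pair, at similar levels in spermatogonia, was far apart in every library of late spermatocytes.

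The RNA polymerase I subunits were low from the start. Polr1a, the catalytic subunit, measured 45.6, 42.3 and 48.4 CPM in spermatogonia, 21.3, 19.98 and 23.8 CPM in late spermatocytes and 1.36, 0.871 and 1.32 CPM in round spermatids. Polr1b, the second large subunit, went from 20.9, 18.4 and 22.5 CPM to 0.570, 0.657 and 0.524 CPM already in late spermatocytes. In late spermatocytes Polr1b was thus under 1 CPM in every library, whereas Polr1a was near 20 CPM.

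All 11 members of the UTP-A, UTP-B and MPP10 complexes fell at least 2-fold from spermatogonia to round spermatids in each library. In UTP-A, which binds the precursor first, Wdr43 went from 184, 159 and 211 CPM to 0.907, 0.670 and 0.802 CPM, and Heatr1 from 74.1, 84.2 and 81.3 CPM to 1.18, 1.41 and 1.56 CPM. Wdr75 of the same complex stopped at 26.5, 31.2 and 23.2 CPM. In UTP-B, Utp18 fell least, from 166, 168 and 164 CPM to 54.7, 63.9 and 56.5 CPM. In the MPP10 complex, Mphosph10 was highest in early spermatocytes, at 242, 241 and 258 CPM, and measured 6.44, 8.44 and 7.55 CPM in round spermatids. Members of 1 complex thus ended at different levels, with Wdr75 above Wdr43 and Heatr1 in every library of round spermatids.

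Of the other 11 small subunit factors, 10 fell at least 2-fold in each library. Utp20 and Noc4l, processome proteins, fell steeply, by 5.79 and 5.51 on the log2 scale in wildtype. Emg1, a methyltransferase of small subunit RNA, went from 336, 338 and 327 CPM in spermatogonia to 9.80, 12.8 and 10.5 CPM in round spermatids. Nop14, a partner of Emg1 and Noc4l, was the exception, with 178, 194 and 210 CPM in spermatogonia, 114, 123 and 124 CPM in late spermatocytes and 113, 129 and 126 CPM in round spermatids. Its wildtype log2 ratio of round spermatids to spermatogonia was -0.62 in CPM, but it turned to 0.49 with TMM and to 0.83 in UMIs per cell. Bysl, a factor of late small subunit maturation, was highest in late spermatocytes, at 43.5, 41.1 and 46.1 CPM, with 40.3, 36.8 and 34.8 CPM in spermatogonia.

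The PeBoW complex of the large subunit pathway also split. Pes1 went from 54.0, 62.4 and 65.8 CPM in spermatogonia to 1.45, 1.88 and 3.21 CPM in round spermatids, and Bop1 from 67.7, 66.2 and 67.9 CPM to 6.35, 8.64 and 8.35 CPM. Wdr12 of the same complex rose from 114, 113 and 100 CPM in spermatogonia to 374, 353 and 374 CPM in late spermatocytes and stood at 206, 214 and 233 CPM in round spermatids. In round spermatids Wdr12 was above Pes1 and Bop1 in every library.

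Rrp1 and Rrp1b, paralogs that act in large subunit processing, took opposite courses. Rrp1 measured 120, 152 and 140 CPM in spermatogonia, 568, 587 and 656 CPM in late spermatocytes and 242, 267 and 276 CPM in round spermatids. Rrp1b measured 84.4, 88.0 and 91.2 CPM, then 12.1, 12.8 and 11.2 CPM, then 3.99, 5.83 and 2.74 CPM in the same classes. The wildtype log2 ratio of round spermatids to spermatogonia was 0.91 ± 0.14 (SD, n = 2) for Rrp1 and -3.90 ± 0.28 for Rrp1b. None of the last 500 bases of either gene's transcripts was shared with another gene in words of 31 bases, so their 3′ counts could be told apart. Rrp1 was the highest member in elongating spermatids, at 169, 180 and 185 CPM, where the 51 genes together had 417, 453 and 475 CPM.

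Of the other large subunit factors, 12 of 14 fell at least 2-fold in each library, the exceptions being Rrp1 and Mrto4. The Noc proteins, which accompany pre-ribosomes through the nucleus, lost their RNA at different steps. Noc2l went from 119, 118 and 102 CPM in spermatogonia to 28.5, 22.4 and 27.9 CPM in early and 0.907, 0.886 and 1.01 CPM in late spermatocytes. Noc3l still measured 13.3, 13.3 and 14.1 CPM in late spermatocytes, and Noc4l of the small subunit pathway 31.6, 33.9 and 41.3 CPM. The 3 genes started at 73.3 to 119 CPM in wildtype spermatogonia and did not overlap in any late spermatocyte library. Nmd3, the export adaptor of the large subunit, was highest in early spermatocytes, at 198, 205 and 187 CPM, and the nucleolar GTPase Gnl3 (nucleostemin) went from 154, 156 and 178 CPM in spermatogonia to 6.26, 8.71 and 9.30 CPM in round spermatids.

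**Figure D3:**
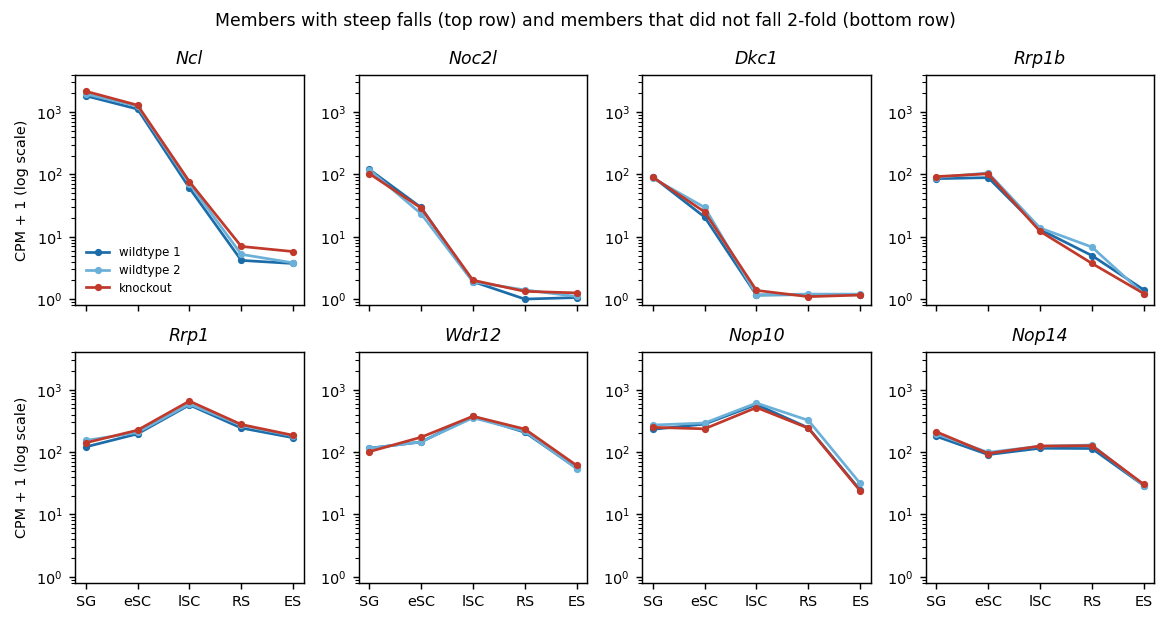
CPM + 1 on a log axis for 8 members over spermatogonia (SG), early and late spermatocytes (eSC, lSC), round (RS) and elongating spermatids (ES), with 1 line for each library. Ncl, Noc2l, Dkc1 and Rrp1b descend, while Rrp1, Wdr12 and Nop10 have their highest point in late spermatocytes and Nop14 stays between 89.95 and 210 CPM up to round spermatids in all libraries.

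The sequences just before the starts of these genes were compared because most members fell together. RefSeq promoter windows of 300 bases, from 250 before to 50 after the start on GRCm38.p6, were found for 44 of the 51 members. The E-box CACGTG, a palindrome bound by MYC and USF proteins, occurred in 10 of the 44 (22.7%), in 7.24% of all 27025 promoters and in 11.01% of the 7495 promoters of genes tested between spermatogonia and round spermatids. The ETS motif CCGGAAG, searched on both strands and as CTTCCGG in reverse, occurred in 17 of the 44 (38.6%), against 9.12% and 19.7%. The canonical motifs of NRF1 and YY1, also searched on both strands with no mismatch, occurred in 0 of 44, beside 0.977% and 0.699% of all promoters and 2.19% and 1.97% of those of tested genes. By their letters, a match of the E-box and one of the ETS motif cannot overlap. A match is a run of letters and no measured binding. None of the 5 members that did not fall 2-fold in each library held any of the 4 motifs. Falling members such as Ncl, Dkc1, Nop56 and Nop58 held none either, so lacking a motif did not set the 5 apart. Mrto4, 1 of the 5, did fall over 2-fold in both wildtype libraries. The sequences below are examples and do not compare the groups. The 150 bases upstream of the start are shown for 4 members that fell and hold a motif (capitals), chosen to show both motifs and both strands, and for 2 that did not fall and hold none. In this order the windows are chr6:125131733-125131882 (plus strand), chr6:124712179-124712328 (minus), chr3:129831397-129831546 (minus), chr10:78185150-78185299 (minus), chr10:78413044-78413193 (minus) and chr2:112261776-112261925 (plus).
Nop2: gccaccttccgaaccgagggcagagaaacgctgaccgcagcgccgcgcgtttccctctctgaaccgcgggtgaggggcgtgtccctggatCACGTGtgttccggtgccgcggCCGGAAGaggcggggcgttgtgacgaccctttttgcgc
Emg1: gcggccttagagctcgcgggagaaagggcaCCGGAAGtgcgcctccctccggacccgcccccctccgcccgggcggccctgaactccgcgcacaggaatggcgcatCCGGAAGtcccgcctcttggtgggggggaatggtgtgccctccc
Gar1: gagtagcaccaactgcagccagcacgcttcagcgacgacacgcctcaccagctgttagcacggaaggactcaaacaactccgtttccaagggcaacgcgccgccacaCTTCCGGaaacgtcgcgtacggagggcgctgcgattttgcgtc
Pwp2: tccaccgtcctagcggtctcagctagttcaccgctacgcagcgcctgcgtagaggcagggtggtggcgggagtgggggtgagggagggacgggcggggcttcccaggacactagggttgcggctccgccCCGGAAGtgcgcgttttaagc
Rrp1: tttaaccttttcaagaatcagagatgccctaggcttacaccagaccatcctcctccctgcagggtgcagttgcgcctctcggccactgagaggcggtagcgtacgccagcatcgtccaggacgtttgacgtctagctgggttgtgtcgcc
Nop10: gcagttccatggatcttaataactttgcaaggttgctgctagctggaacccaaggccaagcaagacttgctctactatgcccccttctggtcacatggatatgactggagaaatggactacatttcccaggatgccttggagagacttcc

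Among members with at least 20 CPM in 1 library of the class, 2, Mrto4 and Rrp9, were higher by over 1.5-fold in the knockout library in late and round spermatids. The member median of the mean log2 ratio to the 2 wildtype libraries was at most 0.08 in size in each germ cell class. In late spermatocytes 63.0% of the members with at least 5 CPM lay above both wildtype libraries, beside 40.0% of all genes at that level. The summed level had an interval of 4620 to 4658 CPM in the knockout library beside 4294 to 4335 and 4291 to 4335 CPM in wildtype. This sum includes Mrto4 and Rrp9, and no sum without them was made. The 14 other large subunit factors, Mrto4 among them, summed to 1238, 1230 and 1549 CPM in that class. A gene was called by size where the knockout level was at least 1.5-fold from each wildtype library in the same direction, with the smaller log2 ratio at least 2 times that between the wildtype libraries and at least 20 CPM in 1 library. By this rule 0 of 51 members were called in spermatogonia (1.2% of all tested genes), 0 of 48 in early spermatocytes (0.769%), 2 of 33 in late spermatocytes (1.69%, and 0.737% counting higher genes alone), 2 of 15 in round spermatids (2.68%, and 1.05% higher) and 0 of 5 in elongating spermatids (3.23%). In late and in round spermatids Rrp9 reached 20 CPM in the knockout library alone, so it entered the 33 and the 15 only through the library in which it was high. With either wildtype library in place of the knockout, 0 members were called in these classes, except Gar1 in round spermatids with wildtype replicate 2. Over all genes, this swap called 25, 14, 3, 2 and 1 along the classes with wildtype replicate 1. With wildtype replicate 2 it called 25, 14, 30, 66 and 1. The genes tested with the knockout library were 7396, 7024, 6106, 5440 and 3126.

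The median log2 ratio of knockout to wildtype over members with at least 5 CPM in 1 library was -0.02 for spermatogonia (51 members) and 0.02 for early spermatocytes (51). It was 0.07 for late spermatocytes (46), 0.05 for round spermatids (32) and 0.08 for elongating spermatids (10). The medians of all genes at that level were -0.00, 0.02, 0.00, -0.00 and 0.06. The median wildtype replicate 2 to replicate 1 ratio of the members was 0.01, 0.00, 0.04, 0.21 and 0.13 in the same classes. The knockout medians rest on the mean of 2 ratios, which shrinks where these differ in sign, and the wildtype medians on 1 ratio. Against wildtype replicates 1 and 2 taken alone, the knockout median was 0.13 and -0.04 for round spermatids. For elongating spermatids it was 0.12 and 0.04. Each of these was smaller in size than the median ratio between the wildtype libraries in that class. The other classes differed in this. Against wildtype replicates 1 and 2 alone the knockout median was 0.06 and 0.06 for early and 0.08 and 0.05 for late spermatocytes. Each of these was larger than the ratio between the wildtype libraries. For spermatogonia it was -0.01 and -0.04, and only the latter was larger in size than that ratio. Per cell, member UMIs in the knockout library were 147% to 176% of the wildtype mean over the 5 germ cell classes, beside 144% to 161% for the UMIs of all genes.

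**Figure D4:**
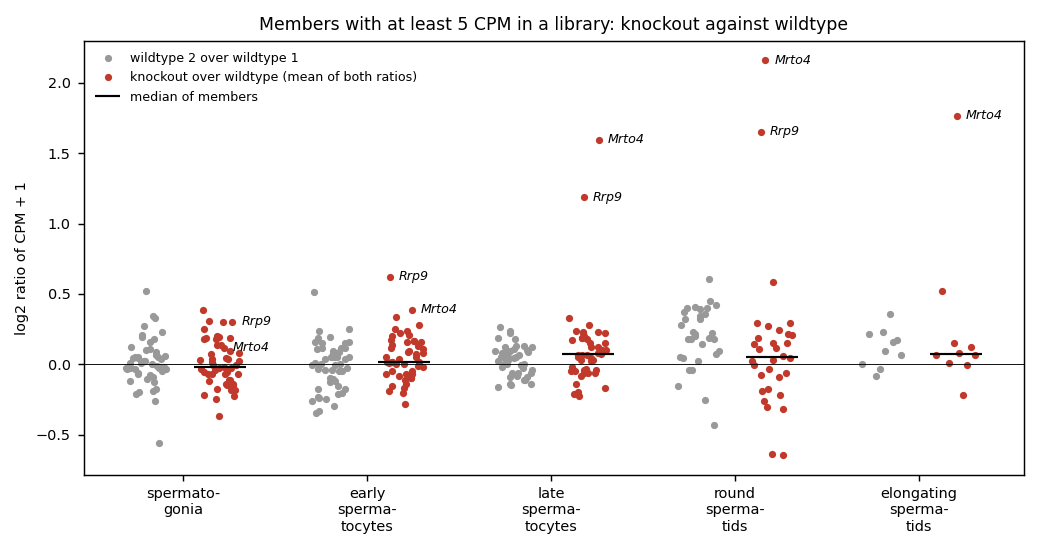
Log2 ratio of CPM + 1 for each member with at least 5 CPM in 1 library, by germ cell class, with wildtype replicate 2 over replicate 1 in grey, knockout over wildtype (mean of 2 ratios) in red and the member median as a black line. A red point is a mean of 2 ratios and a grey point 1 ratio, and Mrto4 lies at 1.59, 2.16 and 1.77 and Rrp9 at 1.19 and 1.65 in the later classes above all others.

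Mrto4 encodes the nucleolar protein that holds the place of the stalk protein P0 on pre-large subunits until it is exchanged in the cytoplasm. In spermatogonia it measured 197 CPM in wildtype replicate 1, 187 CPM in wildtype replicate 2 and 208 CPM in the knockout library, and in early spermatocytes 163, 146 and 202 CPM. In late spermatocytes it measured 116, 108 and 340 CPM, the wildtype mean being 112 ± 6.04 CPM (SD, n = 2) and the knockout interval 335 to 345 CPM. The knockout library was the highest in each class, with no overlap of counting intervals from early spermatocytes on. In round spermatids the levels were 33.6, 32.8 and 152 CPM, and in elongating spermatids 4.0, 4.86 and 17.4 CPM. The mean log2 ratio to wildtype was 0.12 and 0.39 for spermatogonia and early spermatocytes, then 1.59, 2.16 and 1.77 along the later classes. The last value lies under the level of 20 CPM that a call needed. The log2 ratio of round spermatids to spermatogonia was -2.51 and -2.47 in wildtype but -0.45 in the knockout library, so Mrto4 was not among the 46 genes lower in each library.

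Rrp9 encodes the protein that marks the U3 snoRNP, which directs the first cuts of the precursor. It measured 43.7, 29.3 and 44.4 CPM in spermatogonia, where the knockout value lay beside that of wildtype replicate 1. In early spermatocytes it measured 35.6, 27.8 and 49.0 CPM, in late spermatocytes 14.4, 17.0 and 36.9 CPM, and in round spermatids 4.90, 6.77 and 20.3 CPM. From early spermatocytes on, the knockout library lay above both wildtype libraries with intervals apart in each of these classes. The mean log2 ratio was 0.62, 1.19 and 1.65 along these 3 classes. Measured from the member median, Rrp9 lay 1.12 and 1.60 higher in late spermatocytes and round spermatids, and Mrto4 1.52 and 2.11 higher. The other box C/D proteins in late spermatocytes had log2 ratios of -0.05 (Fbl), 0.10 (Nop56) and 0.06 (Nop58).

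Both genes were also examined cell by cell, with each cell thinned to 10000 UMIs and shallower cells left out (18, 104 and 41 late spermatocytes and 19, 47 and 9 round spermatids). Mrto4 was seen in 63.1%, 60.5% and 95.4% of late spermatocytes and in 30.8%, 27.6% and 74.4% of round spermatids, against 90.6%, 82.1% and 97.8% and 61.4%, 53.8% and 97.3% without thinning. The exact binomial 95% interval of the knockout share in round spermatids was 70.0% to 78.4%, and those in wildtype were 25.6% to 36.3% and 23.9% to 31.5%. These intervals cover the sampling of cells within a library and leave out the spread between mice and libraries. Both genes were picked from these same counts, so the shares describe how the molecules lay over cells and add no separate evidence. A Poisson law with the same mean number of molecules per cell gives 31.2%, 27.5% and 79.4%. The cells of the 2 pooled knockout mice cannot be told apart. Rrp9 was seen in 4.30%, 8.09% and 17.8% of thinned round spermatids (14.3%, 15.9% and 56.5% unthinned). In elongating spermatids, where the members were lowest, 493 of 1245, 916 of 1722 and 310 of 1521 cells were too shallow and left out. Of the others a Mrto4 molecule was held by 2.93%, 3.97% and 16.5% (5.06%, 5.23% and 28.2% of all cells unthinned), at median depths of 16362, 15220 and 20443 UMIs beside 32520, 25626 and 43184 in round spermatids.

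Within the classes, Mrto4 was higher in the knockout library in each of the 3 late spermatocyte clusters. It measured 67.0, 59.3 and 287 CPM in the cluster led by 1700001F09Rik, 116, 113 and 402 CPM in the one led by Pou5f2 and 167, 152 and 265 CPM in the one led by Stambp. In the same clusters Rrp9 measured 12.8, 13.2 and 39.3 CPM, 9.19, 9.36 and 33.0 CPM, and 25.2, 30.7 and 42.3 CPM. The knockout value was the highest in every one of these clusters for both genes. The late spermatocyte class was made of these clusters in shares of 44.1%, 28.1% and 27.8% in wildtype replicate 1 and 33.0%, 32.7% and 34.3% in the knockout library, in the order given. Outside the germ line, Mrto4 measured 53.0, 25.6 and 114 CPM in Sertoli-like cells (22, 14 and 52 cells) with the knockout interval apart from both others, and 40.6, 53.6 and 73.0 CPM in peritubular myoid-like cells with overlapping intervals. In these somatic classes 1 of 46 and 1 of 33 members passed the size rule (4.42% and 8.09% of all tested genes), Rrp12 and Rrs1, both lower. With a wildtype library in place of the knockout, 5 and 6 members passed in Sertoli-like cells and 3 and 1 in myoid-like cells. Over all genes the same swap called 567 and 1412 in Sertoli-like cells and 469 and 450 in myoid-like cells. The rule thus does not set Rrp12 and Rrs1 apart from the spread between libraries.

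By a looser rule, that the knockout's counting interval lay apart from both wildtype intervals, 1 of 51 members differed in spermatogonia (4.39% of all tested genes), namely Ncl, which was higher (2.37%). In early spermatocytes 4 of 48 differed (7.96%): Rrp9, Wdr12 and Mrto4 were higher (4.21%) and Nop10 was lower (3.74%). In late spermatocytes 14 of 33 differed (36.2%), 11 of them higher (19.5%) and 3 lower (16.6%). In round spermatids 3 of 15 differed (23.8%), namely Rrp9, Wdr12 and Mrto4, all higher (10.4%), and in elongating spermatids 0 of 5 (34.3%). In late spermatocytes the higher members besides Rrp9 and Mrto4 were Ncl, Mphosph10, Imp4, Utp3, Noc4l, Pes1, Rrp1, Gnl2 and Nip7, with log2 ratios of 0.18 to 0.33. In late spermatocytes the members' share of lower calls was thus below that of all genes and their share of higher calls above it. The clusters of this class stood in other shares in the knockout library, as given above. In wildtype replicate 1 the summed member level was 3497 CPM in the cluster led by 1700001F09Rik and 5061 CPM in that led by Stambp. In the former, Ncl measured 7.81, 8.31 and 7.19 CPM. Its knockout value was the highest in the clusters led by Pou5f2 and Stambp. The interval rule was not applied at equal cluster shares.

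The lower members were from the box H/ACA core and 1 large subunit factor. Nop10 measured less in knockout early spermatocytes, at 280, 291 and 235 CPM, and in late spermatocytes, at 577, 610 and 517 CPM. Gar1 in late spermatocytes measured 32.3, 35.4 and 28.8 CPM, and Rrs1, which brings a small ribosomal RNA particle to the large subunit, 36.0, 35.0 and 31.4 CPM. Each of these differences was under 1.5-fold. In round spermatids Gar1 measured 20.2, 31.3 and 20.01 CPM and Nop10 243, 321 and 240 CPM, where the knockout library matched wildtype replicate 1 and wildtype replicate 2 stood apart.

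The members with the next highest and lowest ratios among those with at least 20 CPM in 1 library of a class were within 1.5-fold by their mean ratio. In spermatogonia the highest were Pwp2 of UTP-B, at 19.4, 17.7 and 24.6 CPM (log2 ratio 0.39), Wdr43 at 0.30 and Rrp9 at 0.30. The lowest were Nob1, the nuclease that makes the last cut of small subunit RNA, at 24.0, 34.8 and 22.2 CPM (-0.37), Rrp12 at 51.3, 59.0 and 46.3 CPM (-0.25) and Utp4 of UTP-A at 79.5, 81.5 and 68.7 CPM (-0.23). Between the wildtype libraries the member ratios in spermatogonia ran from -0.56 to 0.52, and those of the knockout library to wildtype replicate 1 from -0.24 to 0.38 and to wildtype replicate 2 from -0.63 to 0.58. In early spermatocytes Noc3l followed Rrp9 and Mrto4, at 46.5, 51.8 and 62.2 CPM (0.34). The lowest there were Nop10 at -0.28, the RNA methyltransferase Nop2 at 24.2, 27.8 and 22.4 CPM (-0.21) and Emg1 at 173, 175 and 152 CPM (-0.19). In round spermatids Wdr12 stood at 0.15, and the lowest with at least 20 CPM were Gar1 at -0.32, Wdr75 at -0.30 and Ebna1bp2, a large subunit factor, at 65.9, 74.8 and 58.6 CPM (-0.26). Below 20 CPM in that class, Rrp15 measured 17.8, 18.1 and 11.2 CPM (-0.64), with the knockout interval below both others, and Rrp1b 3.99, 5.83 and 2.74 CPM (-0.64). The highest below 20 CPM there were Pes1 at 1.45, 1.88 and 3.21 CPM (0.66) and Ncl at 3.17, 4.22 and 5.99 CPM (0.58). Noc4l followed at 0.635, 0.670 and 1.42 CPM (0.55). In elongating spermatids the 5 members at 20 CPM, namely Wdr12, Rrp1, Nop14, Npm1 and Nop10, ranged from 0.15 for Wdr12 to -0.22 for Nop10.

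The positions of Mrto4 and Rrp9 are given because other genes near them also differed. Mrto4 lies on the minus strand at chr4:139347435-139352576 and Rrp9 on the plus strand at chr9:106475963-106485424 (GENCODE M21, GRCm38). Within 20 Mb of Mrto4, 21 of 195 other tested genes (10.8%) passed the size rule in late spermatocytes, 15 higher and 6 lower, beside 9 of 216 (4.17%) on the rest of the chromosome. Within 20 Mb of Rrp9, 17 of 140 (12.1%) passed, 7 higher and 10 lower, beside 1 of 224 (0.446%) on the rest of the chromosome. Over all chromosomes the share was 1.69%, and chromosomes 4, 9 and 14 had the highest shares, 7.52%, 5.21% and 6.90%. Both members thus lie in stretches where called genes were more frequent than on the rest of their chromosomes. The split at 20 Mb was chosen after the values were seen. Its part in the result was not tested, and with 1 knockout library of mice whose parents the labels do not describe, the knockout and the origin of these chromosome stretches cannot be told apart.

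Tex10 is on the same chromosome as Mrto4, at chr4:48430858-48473459, 90.9 Mb away. Within 10 Mb of Tex10, 2 of 70 tested genes (2.86%) passed the size rule in late spermatocytes, beside 25 of 268 (9.33%) over 50 Mb away. The other members on chromosome 4 were not called: in late spermatocytes the log2 ratio was 0.28 for Gnl2 (at -14.3 Mb from Mrto4), 0.08 for Noc2l (at 16.9 Mb) and -0.06 for Ebna1bp2 (at -20.7 Mb). Imp3 (at -49.5 Mb from Rrp9) had 0.15. Of the 35 genes tested within 2 Mb of Rrp9, 7 were called in late spermatocytes, and among them the ribosomal protein gene Rpl29 had 1045, 1061 and 114 CPM. In late spermatocytes Rpl29 was thus lower and Rrp9 higher in the same library.

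**Figure D5:**
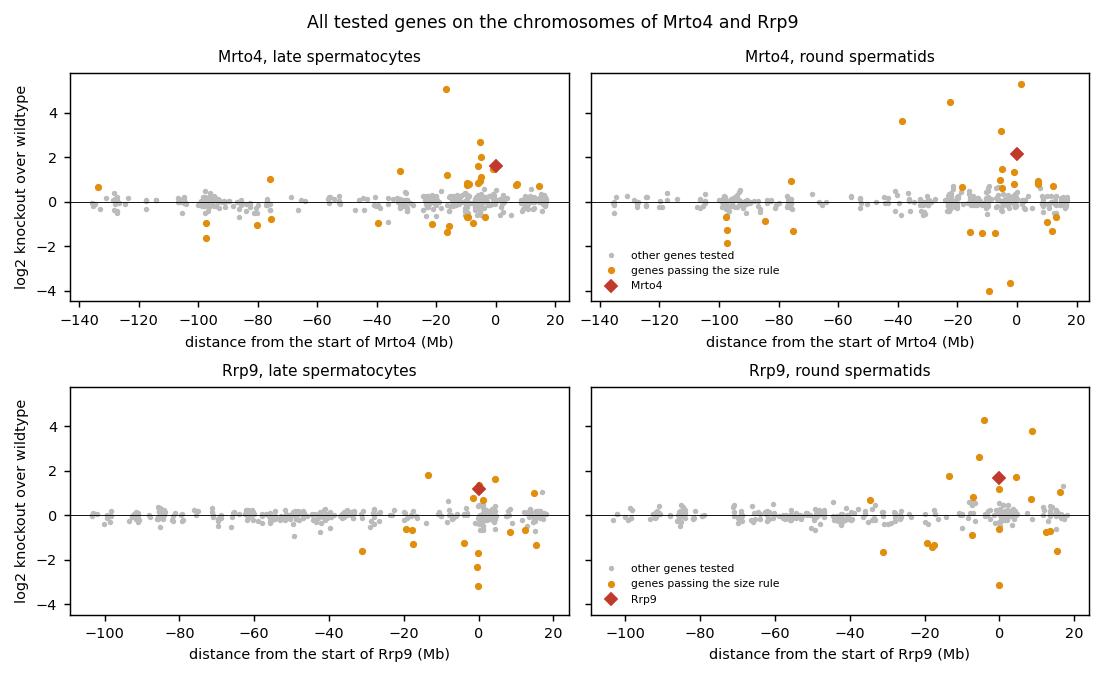
Mean log2 ratio of knockout to wildtype for all tested genes on the chromosomes of Mrto4 (top) and Rrp9 (bottom), by distance in Mb from each gene's start, in late spermatocytes (left) and round spermatids (right). Orange points, the genes passing the size rule, crowd on both sides of zero toward the end of the chromosome that holds Mrto4 or Rrp9, while grey points stay near 0.

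Neighbouring and copied genes limit what a 3′ count can tell. Of the last 500 bases of Mrto4 transcripts, 19.8% of the words of 31 bases also occurred elsewhere, among others in the pseudogenes Mrto4-ps1 and Mrto4-ps2, which are not rows of the deposited matrices. For Rrp9 the share was 2.60%. Parp3 overlaps Rrp9 on the opposite strand, and whether strand was used in counting is not given in the sources used here. Parp3 itself measured 0.959, 1.54 and 1.34 CPM in late spermatocytes. Its part in the counts of Rrp9 was not tested. Emc1, which starts next to Mrto4 on the other strand, measured 7.07, 7.69 and 8.74 CPM there. Over all members, 26 of 51 had under 1% of such shared words and 0 had over 50%. The members with a larger share than Mrto4 were Fbl (36.0%), Pes1 (35.4%), Nop56 (27.1%), Npm1 (23.8%) and Wdr12 (21.5%). Its part in the levels given for these genes was not tested.

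Other genes of the pathway, taken from lists made by function, were mostly lower in round spermatids, except for the other snoRNP factors, whose share of 54.5% was near that of all genes. The genes lower at least 2-fold from spermatogonia to round spermatids in each library were 13 of 15 other polymerase I factors, 32 of 38 other small subunit factors, 31 of 38 other large subunit factors, 6 of 11 other snoRNP factors, 7 of 7 genes of the Tex10 complex and 68 of 82 cytosolic ribosomal proteins, read against 49.2% of all genes. At least 2-fold higher in each library were Lyar, a nucleolar zinc finger protein, Ruvbl2 and Pih1d1, which help assemble box C/D particles, and the ribosomal protein gene Rpl39l. Lyar measured 609, 651 and 681 CPM in spermatogonia and 4716, 4428 and 4792 CPM in late spermatocytes, more than all 51 members together in each library.

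In the knockout library 0 genes passed the size rule in any germ cell class among the other polymerase I, small subunit, snoRNP and Tex10 complex lists. In the large subunit list it was Efl1, the GTPase that releases the factor Eif6 from new large subunits, in late and round spermatids. Efl1 measured 33.1, 42.2 and 18.7 CPM in late spermatocytes and 117, 142 and 37.3 CPM in round spermatids, with the knockout value lowest in both. Among ribosomal proteins it was Rpl29 in all 5 classes, Rps27 in early spermatocytes and round spermatids, and Rpsa in round spermatids, all lower. The median log2 ratio of the ribosomal proteins was -0.07, -0.18, -0.07, -0.16 and -0.14 along the classes. For the 7 Tex10 complex genes it was -0.01, 0.09, 0.14 and -0.16 from spermatogonia to round spermatids. Of these genes 7, 6, 5 and 2 were tested there, and none was tested for elongating spermatids.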

How the data were processed

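UMI counts per gene and barcode were deposited as 10x matrices, which the authors made with Cell Ranger 4.0.0, per the file headers. The submitters' processing notes also name mm10 and Seurat 4.0.5. Strand use is not given in the sources used here. The 51 members and all gene lists were chosen with earlier results of these data known.

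Kept barcodes had no fewer than 1000 UMIs and 500 genes, and a mitochondrial share of at most 10%. Scrublet's own threshold marked 0, 1 and 0 barcodes, so the top 8% of its scores per library were left out instead. Cells were clustered jointly with scanpy 1.11.5 (2000 variable genes, 30 components, 15 neighbours, Leiden resolution 1, leidenalg 0.10.2). Clusters were named from 12 marker lists where at least 3 markers were detected, and clusters whose UMIs per cell were low for their library were left unnamed (a limit of 3, chosen after seeing the data). The names are rebuilt and may differ from the study's. For each class and library the UMIs were added up and scaled to CPM, with 1 CPM added for log2 ratios. The size rule was checked on simulated counts with known changes, drawn with counting error alone and no spread between libraries. The interval rule was not simulated. TMM factors came from edgeR 4.0.16. Genes were named by a rule: the 3 highest and lowest knockout ratios per class, the 5 steepest and least falls, each called member, Dkc1 with its partners, and paralogs. The labels' protocols give collagenase type IV digestion and 10x Chromium 3′ chemistry. Alternatives were other scaling, filters, doublet handling, clustering, pseudocounts and leaving out each wildtype library. Gene positions are from GENCODE M21, which held 32235 of the 32285 genes.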

Additional observations from a re-analysis of the deposited data

Results flagged for a closer look

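The barcodes of the low-UMI clusters belong to none of the comparisons above, and they too held more Mrto4 and Rrp9 in the knockout library than in wildtype. Mrto4 measured 54.1 and 67.7 CPM in the wildtype libraries and 262 CPM in the knockout library. Rrp9 measured 13.17 and 13.0045 CPM in wildtype and 31.6 CPM in the knockout library. The signal is listed because it lies in data that the comparisons leave out and above the wildtype level. By the size rule 2 of 28 members were called higher there, beside 0.966% of all 6519 tested genes, and Rrp9 reached 20 CPM in the knockout library alone. These clusters held 56.8%, 42.9% and 65.1% of the kept barcodes. Round spermatid markers stood there at 82.7%, 66.3% and 55.9% of their own class, and late spermatocyte markers at 54.1%, 58.9% and 66.0%. The mix of cell types thus differed between libraries, and its part in these levels was not tested.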

How the results depend on the processing

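No paired analysis was possible because the knockout has 1 library. The count of members passing the size rule in at least 1 germ cell class, 2 in CPM, was 13 in UMIs per 100 cells, where the median of all genes shifts by 0.54 to 0.73 on the log2 scale, and 4 with no minimum CPM (Ncl and Rrp15 added). Leaving out each wildtype library gave 2 to 4 (Gar1 and Nob1 added without wildtype replicate 1). The count of members away from the member median went from 2 to 4 with no minimum CPM (Rrp15 and Utp4 added). The median log2 ratio of round spermatids to spermatogonia, -3.50, became -2.47 with TMM, -2.32 per 100 cells, -2.90 with no doublet removal, -3.70 when clustered without the pathway genes, -3.35 with low-UMI clusters named too, and -3.87 and -2.70 with pseudocounts of 0.1 and 5 CPM. It was -3.67 without wildtype replicate 1 and -3.56 without wildtype replicate 2. With TMM and per 100 cells, 36 and 32 members were lower at least 2-fold in each library, in place of 46, beside 37.8% and 34.6% of all genes. Gar1 and Utp18 were no longer past that limit in both. Over the alternatives other than UMIs per cell, Mrto4 ranged from 1.54 to 1.94 in late spermatocytes and from 2.04 to 2.28 in round spermatids, and Rrp9 from 1.02 to 1.59 and from 1.23 to 1.85. The member median of the knockout ratio ranged from -0.05 to 0.02 in spermatogonia and from -0.01 to 0.11 in early spermatocytes. It ranged from -0.02 to 0.08 in late spermatocytes, -0.07 to 0.17 in round and 0.04 to 0.25 in elongating spermatids. These alternatives include the same cluster weights in every library, which was chosen after seeing the data. Of 689 recomputed values of single genes and of class medians, 548 were counted as unchanged. A value past its limit was counted so while it stayed past that limit, however far it moved. Any other value was counted so if it moved by no more than the spread between replicates. Another 137 moved by more than that spread, 4 were no longer past their limit and none changed the sign of a call. The causes of these shifts were not tested. Counting error is not small in the smaller classes (Pwp2 at 19.4 CPM in the spermatogonia of wildtype replicate 1 had an interval of 14.4 to 25.5 CPM), and the lack of a second knockout library limits every knockout value.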
